A study of Mus musculus with 19 samples.

Results

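The genes described here encode the proteins of the cytosolic ribosome. Members were chosen by gene symbol alone, as rows named Rpl, Rps, Rplp or Rpsa with the usual numbers, without Rpl39l, pseudogene names and S6-kinase genes. This gave 78 of the 12778 genes in the expression matrix, 46 of the large subunit and 32 of the small subunit. They lay on 19 chromosomes, with 14 on chromosome 7 and 4 on the X chromosome. GENCODE M21 (GRCm38, the same build as mm10) annotated 77 as protein coding and Rps4l as a transcribed processed pseudogene.

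The data are 19 mouse libraries in 6 groups, made with QuantSeq, a method that reads 1 tag near the poly(A) tail of each mRNA. All cells were grown in LIF and FBS. Induced pluripotent stem cells (iPSC) came from mouse embryonic fibroblasts given Oct4, Sox2 and Klf4, and were collected after more than 18 passages. They were wild type (WT, 3 libraries), miR-290 knockout (miR-290 KO), miR-302 KO, or KO for both clusters (double KO), each KO group with 2 independently derived colonies and 2 libraries per colony. Embryonic stem cells (ESC) were miR-290 KO or miR-302 KO, with 2 libraries each. The WT controls were excepted from the statement that replicates were derived independently, so their 3 libraries may come from 1 derivation. The p-values against WT use a spread pooled over all 6 groups, which may then hold no spread between WT derivations. The comparisons ask how gene expression differs with either cluster or both deleted, and between iPSC and ESC of the same deletion.

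A mammalian ribosome holds 1 copy of most ribosomal proteins, and cells make them in matched amounts. Their mRNAs are among the most abundant in dividing cells. Most begin with a C followed by a run of pyrimidines, the 5′ terminal oligopyrimidine (TOP) motif, through which mTORC1 and LARP1 control their translation and stability. The miR-290 and miR-302 clusters make microRNAs that share a seed (bases 2 to 8, the part that pairs with targets) and are abundant in mouse pluripotent cells. Below, the seed of 2 miRNAs of each cluster is in capitals, from RefSeq (GRCm38.p6). They show what the 2 deletions remove.
miR-291a-3p: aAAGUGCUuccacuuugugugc
miR-294-3p: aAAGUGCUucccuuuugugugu
miR-302b-3p: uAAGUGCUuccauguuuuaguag
miR-302d-3p: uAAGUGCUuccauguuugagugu
The pyrimidine runs of the members can be seen around their annotated start sites. For 57 of the 78 members a RefSeq promoter was matched by symbol. A run of at least 10 bases of only C and T, on the coding strand and lying from 40 bases before to 50 after the annotated start, was found in 41 of 57 (71.9%). Of all 27025 promoters of the same length, 18.3% held one, and of the 9678 of genes in the matrix, 17.6%. The motif CCGGAAG, searched on both strands over the 300 bases, was found in 42.1% of members and in 20.0% of genes in the matrix. TATAAA, on both strands, was found in 10.5% of members and 8.51% of genes in the matrix.
The sequences below run from 40 bases before the annotated start to 30 bases from it, with the longest pyrimidine run of that window in capitals. They are shown because the members differ in where the run falls and how long it is. Their coordinates, on GRCm38.p6, are chr4:86857338-86857407 (minus strand, Rps6), chr10:23787180-23787249 (minus, Rps12), chr4:136053364-136053433 (minus, Rpl11), chr11:114668540-114668609 (plus, Rpl38), chr3:90213619-90213688 (minus, Rps27) and chr9:66946046-66946115 (plus, Rps27l).
Rps6: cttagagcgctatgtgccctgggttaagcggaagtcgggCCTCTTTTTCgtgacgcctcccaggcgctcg
Rps12: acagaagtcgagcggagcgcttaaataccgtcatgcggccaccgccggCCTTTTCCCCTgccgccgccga
Rpl11: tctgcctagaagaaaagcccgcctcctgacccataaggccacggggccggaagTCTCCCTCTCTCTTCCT
Rpl38: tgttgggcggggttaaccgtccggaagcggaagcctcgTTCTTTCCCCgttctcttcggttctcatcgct
Rps27: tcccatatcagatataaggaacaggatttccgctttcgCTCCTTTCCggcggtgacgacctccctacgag
Rps27l: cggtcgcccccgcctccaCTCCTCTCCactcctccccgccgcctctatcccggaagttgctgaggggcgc
The run is 10 bases long in Rps6 and in Rpl38, 11 in Rps12, at least 17 in Rpl11, where it reaches the window's end, and 9 in Rps27 and Rps27l. In Rps6, Rpl38 and Rps27 it begins 1 or 2 bases before the annotated start, and in Rps12 and Rpl11 at bases 9 and 14 counted from it. In Rps27l, whose product is a paralog of that of Rps27, the marked run begins 22 bases before it, and another run of 9 begins 12 bases before it.

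The matrix values are log2 CPM, where CPM is a gene's reads scaled to the library's total. Whole reads were recovered from them for 58 of the 78 members. Summed over the 12233 genes with whole reads, library totals were 6430186 to 24970500 reads. The CPM and shares given here are scaled to library sizes in proportion to the few reads that were added to each library's values. These sizes were matched to the totals by the median ratio. The totals, in percent of these sizes, spread over 3.75 points. For 17 other members the level was set from the authors' mean normalized count, and for Rpl32, Rpl7a and Rps2 no level could be set. Each transcript gives about 1 tag, so levels are compared between genes as CPM without scaling by length. Library 2 of miR-302 KO colony 1 stood apart in these genes. Against its sister library, 30 of 78 members (38.5%) differed by more than 1 on the log2 scale, as did 49.9% of all genes. In the other 10 pairs of sister libraries at most 4 members did so. The 4 were in miR-290 KO colony 2, whose libraries had an SD of 0.617 of their log2 differences over the members, where the other 9 pairs had at most 0.379. Over all genes 16.6% differed by more than 1 in that pair, within the 6.77% to 21.1% of those 9 pairs. Library 1 of that colony and library 2 of miR-302 KO colony 1 are called the 2 uneven libraries below, and members named for large differences in these groups are also given without them.

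**Figure D1:**
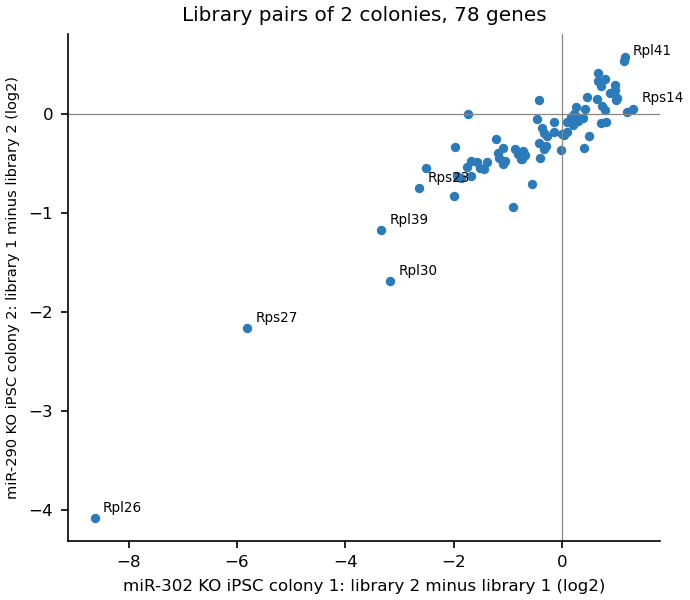
log2 difference between the 2 libraries of miR-302 KO colony 1 (x axis, library 2 minus library 1) and of miR-290 KO colony 2 (y axis, library 1 minus library 2), 1 point for each of the 78 genes. Rpl26 (-8.63), Rps27 (-5.81), Rpl39 (-3.33) and Rpl30 (-3.18) are lowest on the x axis and are also the lowest on the y axis.

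The whole set was lower in the double KO. As a share of the library size, which was matched to the total over genes with whole reads, members took 23.1%, 27.2% and 21.7% in the 3 WT libraries. In the 4 double KO libraries they took 15.6%, 15.4%, 14.6% and 15.1%. Every double KO library lay below the other 15, in which the share ran from 18.9% to 27.2%. The group values were 24.01% ± 2.88 (SD, n = 3) in WT, 21.0% ± 0.237 (n = 2) in miR-290 KO, 23.0% ± 0.262 (n = 2) in miR-302 KO and 15.2% ± 0.491 (n = 2) in double KO iPSC. In ESC it was 22.1% ± 0.484 (n = 2) for miR-290 KO and 20.7% ± 0.680 (n = 2) for miR-302 KO. The total leaves out the 17 members with levels set from the authors' mean, while these shares count them. Members with whole reads alone took 19.5%, 22.9% and 18.2% in WT and 13.3%, 13.1%, 12.4% and 12.8% in double KO.

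**Figure D2:**
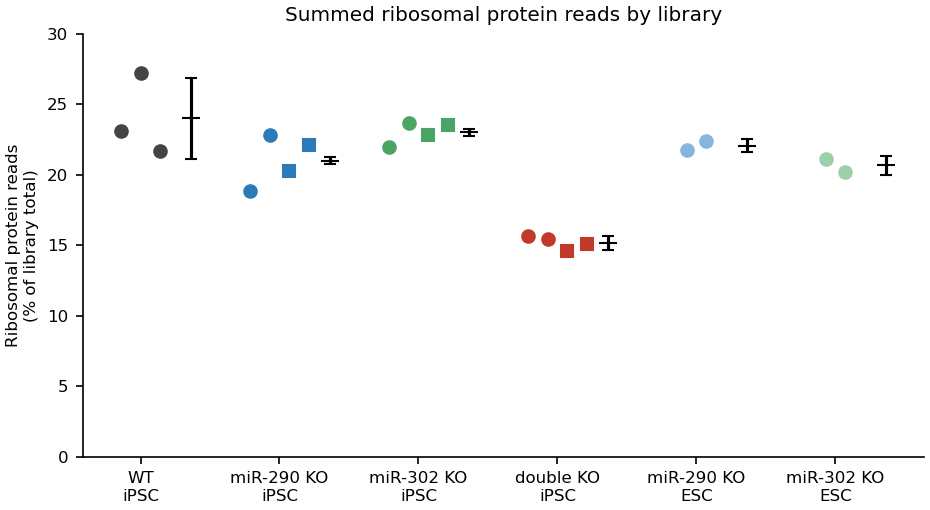
Summed ribosomal protein genes with a level (y axis, % of the library size matched to the total over genes with whole reads), by group (x axis). Each point is a library, squares are colony 2, and the bar beside each group is the mean ± SD over colonies (WT and ESC: libraries). The 4 double KO libraries sit between 14.6% and 15.6%, below all 15 others.

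Between double KO and WT iPSC, 46 of the 78 members were lower and 0 were higher (limma, Benjamini-Hochberg adjusted p under 0.05 over 12778 genes). Over all genes 49% passed, 21.5% lower and 27.4% higher. The median member was 0.63 lower on the log2 scale, a fall by 35.2%, where the median gene was 0.16 higher. Of the 32 members that did not pass, 27 had negative and 5 positive values. At library level, every double KO library was below every WT library for 61 members and above for 3, beside 27% and 36% of all genes. The count of members called fell from 46 to 27 without double KO colony 2.

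Both subunits took part. Of 46 large subunit members 29 fell, with a median of -0.67, and of 32 small subunit members 17 fell, with a median of -0.61. Among the 58 members with whole reads 33 fell, with a median of -0.60. For members whose promoter held a pyrimidine run, 27 of 41 fell, with a median of -0.73, and for those without, 8 of 16, with a median of -0.54. Whether these subsets differ was not tested. The bulk values do not tell fewer cells of a type from less RNA per cell.

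**Figure D3:**
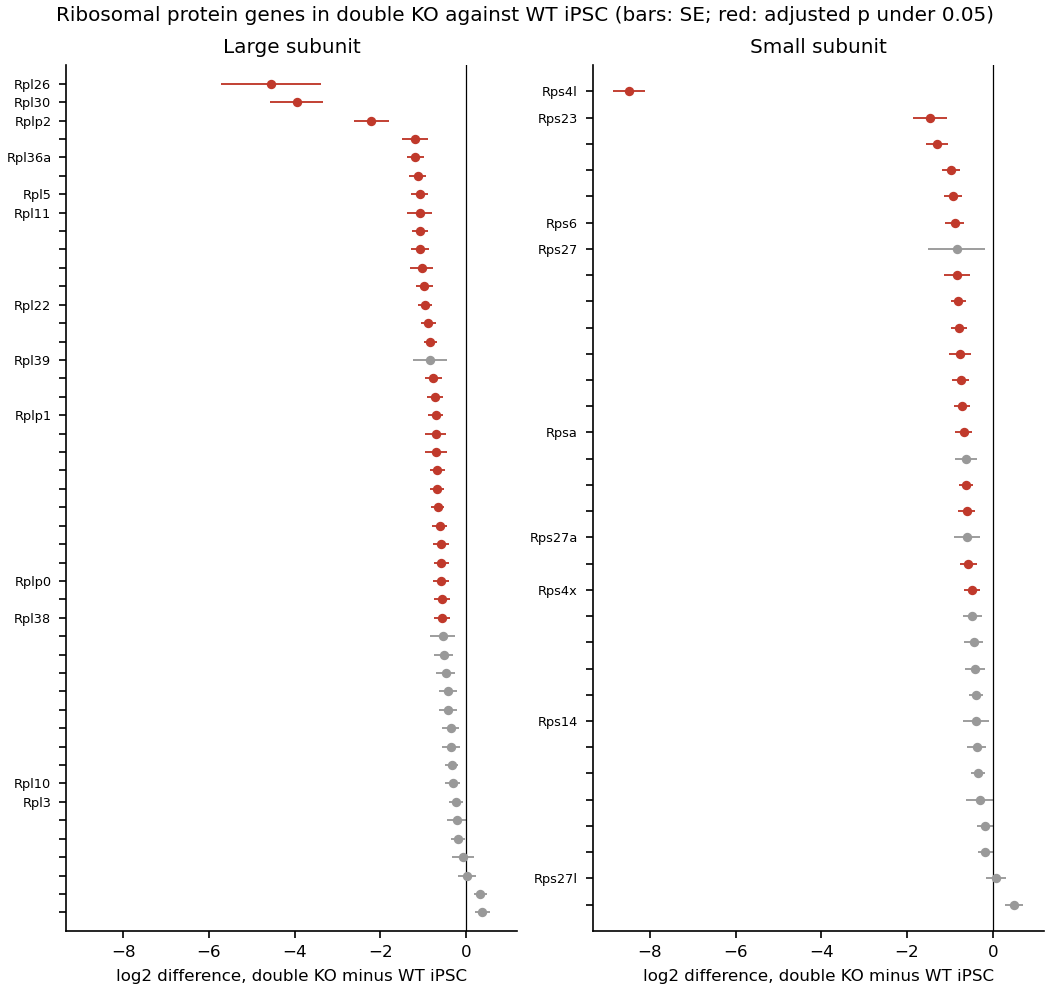
log2 difference between double KO and WT iPSC (x axis) for each of the 78 genes (y axis, 1 row a gene, with some of the names), by subunit, with SE bars. Red points passed an adjusted p under 0.05. Most points lie between 0 and -1.2, Rps4l is at -8.48, and the few to the right of 0 did not pass.

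Markers of other cell states were counted in the same fit. All 12 pluripotency markers fell in double KO against WT, with a median of -6.63. Their summed level was 3506 to 4516 CPM over the WT libraries and 229 to 339 CPM over the double KO libraries. Most of the double KO sum was Fgf4, which fell least of the 12. It had 275 CPM on average in WT and 181 in double KO, a difference of -0.63 ± 0.23 (limma adjusted p = 0.039). Nanog had 686 CPM on average in WT and 2.39 in double KO, Pou5f1 648 and 24.9, and Sox2 382 and 36.2. Of the 12, 4 were under 1 CPM in the double KO. Fibroblast markers were represented by 5 of 15 genes, of which 2 (Thy1 and Pdgfrb) fell and 0 rose. Twist1 had 0.719 CPM in WT and 5.26 CPM in double KO on average, a difference of 2.55 that did not pass (limma adjusted p = 0.051). Their sum ran from 519 to 676 CPM in WT and from 319 to 1020 in double KO, most of it Fn1 (means of 611 and 676 CPM). Of the 5, 3 were under 1 CPM in the double KO. The part of these marker changes in the members' values was not tested.

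Rpl5 and Rpl11 bind 5S rRNA and, when free, the p53 regulator Mdm2. Rpl5 had 4725, 5780 and 4397 CPM in WT and 2456, 2270, 2285 and 2263 CPM in double KO. All double KO libraries were thus below the lowest WT library. The log2 difference was -1.09 ± 0.19 (SE; limma adjusted p = 0.00058). Rpl11 had 4136, 4634 and 2875 CPM in WT and 1957, 1797, 1659 and 1777 CPM in double KO. The groups again did not overlap, and the difference was -1.08 ± 0.30 (limma adjusted p = 0.0089). Rpl22, which mice can live without and which has a paralog, Rpl22l1, went from 2317, 2756 and 2338 CPM to 1210, 1206, 1354 and 1301 CPM. It fell by 0.96 ± 0.16 (limma adjusted p = 0.00036), while Rpl22l1 was at 0.09 ± 0.46 and did not pass (adjusted p = 0.89).

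Among the other large subunit genes, Rpl38, known for its part in translating Hox mRNAs, split by colony. It had 2106, 2582 and 2237 CPM in WT, 1766 and 1936 CPM in double KO colony 1, and 1301 CPM in both libraries of colony 2. All 4 lay below WT, and Rpl38 fell by 0.57 ± 0.19 (limma adjusted p = 0.024). Without colony 2 the difference was -0.31 (adjusted p = 0.28), and the call was also lost without WT library 2. Rpl3, next to the peptidyl transferase center, had 2149, 2485 and 2242 CPM in WT and 1967, 2006, 1876 and 1925 CPM in double KO. Its difference of -0.24 ± 0.17 did not pass (limma adjusted p = 0.26).

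The stalk recruits elongation factors and is built of Rplp0, Rplp1 and Rplp2. Rplp0 had 3814, 4077 and 3433 CPM in WT and 2360, 2391, 2658 and 2681 CPM in double KO, and fell by 0.58 ± 0.19 (limma adjusted p = 0.021). Rplp1 had 7921, 8717 and 6999 CPM in WT and 4475, 4757, 4697 and 5199 CPM in double KO, and fell by 0.72 ± 0.19 (limma adjusted p = 0.0067). In neither gene did the groups overlap. The Rplp0 call was lost without either double KO colony, WT library 1 or WT library 2 (-0.66 to -0.50 over all samples left out in turn), and the Rplp1 call without double KO colony 1. Rplp2 had much lower values, 511, 574 and 657 CPM in WT and 120, 93.7, 145 and 147 CPM in double KO, with a log2 difference of -2.21 ± 0.40 (limma adjusted p = 0.00069). Its reads were not whole, so its value may hold reads divided between copies and is uncertain.

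In the small subunit, Rps23 and Rps12 had the largest falls among members with whole reads. Rps23, at the decoding center, had 9889, 11789 and 6816 CPM in WT, where it was the most abundant member. In double KO it had 3471, 2894, 3316 and 3736 CPM. The WT libraries themselves spread widely, and the difference was -1.47 ± 0.40 (limma adjusted p = 0.0085). Rps12 had 7349, 9158 and 5447 CPM in WT and 3008, 2666, 2816 and 3085 CPM in double KO. Every double KO library was below all 15 others, and the difference was -1.31 ± 0.25 (limma adjusted p = 0.0010). Rps6, the substrate of S6 kinase, had 3510, 4264 and 3343 CPM in WT and 2183, 1986, 1919 and 1869 CPM in double KO, and fell by 0.89 ± 0.23 (limma adjusted p = 0.0060). Rpsa, also known as the laminin receptor precursor, had 2573, 3309 and 2364 CPM in WT and 1595, 1455, 1865 and 1909 CPM in double KO, and fell by 0.68 ± 0.19 (limma adjusted p = 0.0099). The calls of Rps23 and Rpsa were lost without double KO colony 1, and that of Rpl11 without colony 2.

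Other small subunit genes did not pass. Rps14, whose human counterpart lies in the region lost in the 5q- syndrome, had 3025, 4592 and 4781 CPM in WT and 2941, 3236, 3054 and 3080 CPM in double KO. The groups overlapped, and the difference was -0.40 ± 0.30 (limma adjusted p = 0.29). Rps27a is made as a fusion with ubiquitin. It had 4406, 5572 and 4249 CPM in WT, 3735 and 3258 CPM in double KO colony 1, and 2671 and 2835 CPM in colony 2. All 4 were below WT, and the difference of -0.60 ± 0.30 did not pass (limma adjusted p = 0.115).

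The paralogs Rps27 and Rps27l had different values. Rps27l, known as a p53 target, had 550, 558 and 575 CPM in WT and 592, 592, 605 and 566 CPM in double KO. These values overlapped, with a difference of 0.07 ± 0.24 (limma adjusted p = 0.83), and its sign turned to -0.069 with median-of-ratios scaling and to -0.063 with chromosome medians subtracted. Rps27l had the lowest level of all members with whole reads in each of the 6 groups. The highest member was Rps23 in WT and miR-302 KO ESC and Rpl41 in the other groups. Rps27 had 1223, 1972 and 2292 CPM in WT and 1261, 850, 1200 and 730 CPM in double KO. The groups overlapped, and the difference was -0.84 ± 0.67 (limma adjusted p = 0.32). The difference between the paralogs was not tested.

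On the X chromosome lie Rpl10, Rpl36a, Rpl39 and Rps4x. Rpl36a had 2443, 3148 and 2322 CPM in WT and 1173, 1110, 1126 and 1189 CPM in double KO, a fall of 1.19 ± 0.19 on the log2 scale (limma adjusted p = 0.00026). Rps4x fell by 0.49 ± 0.18 (limma adjusted p = 0.039), from 2548 ± 299.7 CPM (SD, n = 3) to 1807 ± 83.8 CPM (n = 2). The Rps4x call was lost in 6 of 13 fits that left out 1 sample (-0.57 to -0.40): either double KO colony, WT library 2 or 3, or either miR-290 KO ESC library. Neither Rpl36a nor Rps4x gave whole reads. Rpl10, which is needed for the joining of the subunits, had 3165, 3569 and 2839 CPM in WT and 2668, 2627, 2502 and 2395 CPM in double KO, all below WT. Its difference of -0.32 ± 0.18 did not pass (limma adjusted p = 0.17). Rpl39, at the exit of the peptide tunnel, had 2706, 3578 and 2882 CPM in WT and 1866, 1635, 1638 and 1661 CPM in double KO. The groups did not overlap, and the difference was -0.84 ± 0.40 (limma adjusted p = 0.097). In this fit the spread is pooled over all groups, and miR-302 KO colony 1 library 2, at 319 CPM beside 3221 CPM in its sister, enters it. Without that library 55 members fell in double KO against WT, and 1 rose.

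**Figure D4:**
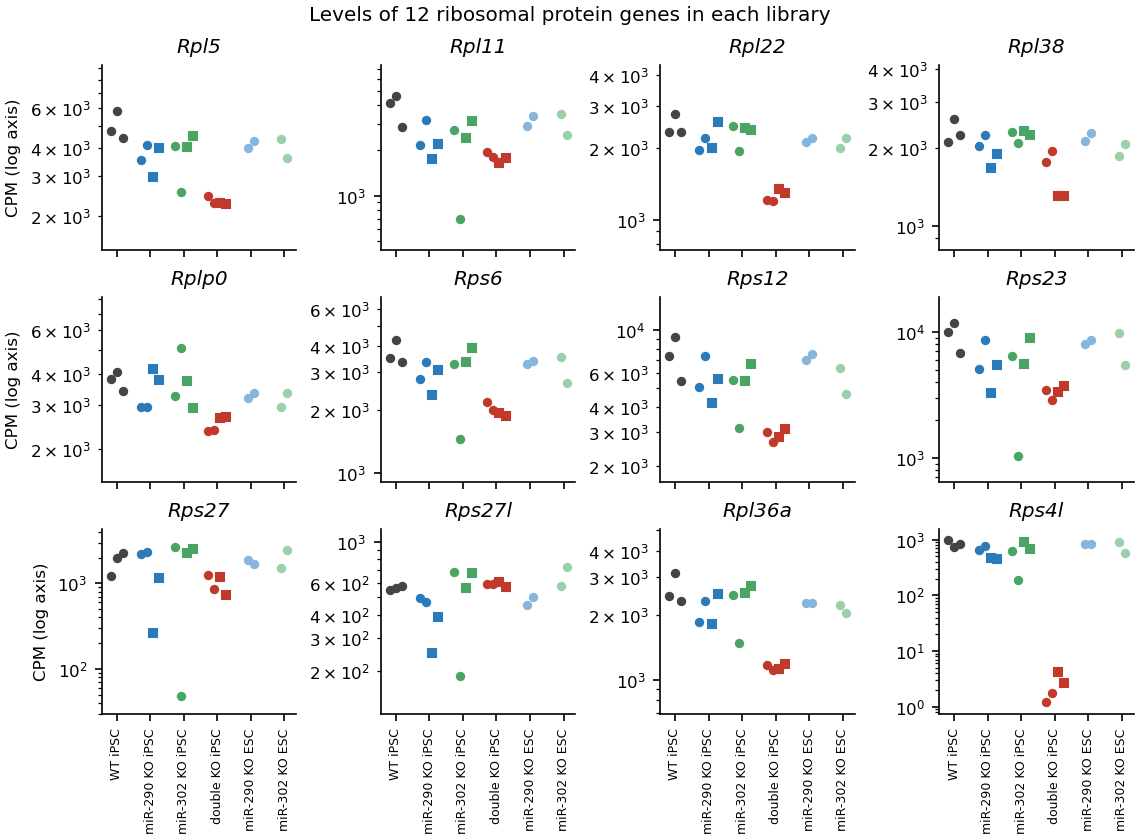
Levels of 12 genes (y axis, CPM, log axis with its own range for each gene) in each library of the 6 groups (x axis). Circles are colony 1 or libraries without a colony, and squares are colony 2. Rps4l falls to 1 to 4 CPM in the double KO, Rps27l stays between 566 and 605 CPM there, and miR-302 KO colony 1 library 2 is the lowest green circle in every panel but Rplp0, where it is the highest.

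The largest change of all members was in Rps4l, an intronless copy of Rps4x at chr6:148354656-148355598. It had 968, 747 and 843 CPM in WT, 651, 771, 459 and 457 CPM in miR-290 KO iPSC, and 851 and 831 CPM in miR-290 KO ESC. In the double KO it had 1.20, 1.78, 4.14 and 2.71 CPM. The difference from WT was -8.48 ± 0.37 (limma adjusted p = 3.1e-09). In miR-302 KO iPSC it had 623, 187, 909 and 673 CPM, with the 187 CPM in library 2 of colony 1. Rps4l gave no whole reads, so part of its level may be shared with copies. Over all genes of chromosome 6 the median against WT was 0.62 and 0.70 in the 2 double KO colonies, the highest of any chromosome in each. Whether this bears on Rps4l was not tested.

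Rpl26 and Rpl30 had the next largest values, -4.56 ± 1.16 (limma adjusted p = 0.0061) and -3.95 ± 0.61 (limma adjusted p = 0.00021). Their levels were only 34.5 ± 13.5 CPM and 38.0 ± 6.89 CPM (SD, n = 3) in WT, where the median member had 2913 CPM. Neither gave whole reads, and both are uncertain.

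Further copies lie outside the name rule. Rpl39l and Rpl10l, copies of Rpl39 and Rpl10 known from testis, had 37.3 to 114 CPM and 44.1 to 62.9 CPM in WT. In the double KO, Rpl39l had 0 reads in 4 libraries against 3261 reads in 3 WT libraries. At a floor of 3 reads over the group it was at least 1334-fold lower. Rpl10l had 2 reads against 2775, a ratio of 1703 (95% exact interval from 471 to 14067, counting error only). Of the 10 genes of this list in the matrix, 7 fell in double KO against WT and 0 rose, with a median of -0.52. The abundant ones changed by less. Fau, which encodes Rps30 fused to a ubiquitin-like protein, fell by 0.53 ± 0.17 (limma adjusted p = 0.023), and Rps3a1 was at -0.45 ± 0.19 (adjusted p = 0.064).

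With either cluster alone deleted, few members passed. In miR-290 KO against WT iPSC, 1 of 78 members rose and 0 fell, beside 1.57% of all genes called (1.21% higher and 0.36% lower). The median member was at -0.23, the median gene at 0.14, and 65 members had negative values. The gene that rose was Rpl29, with 764, 845 and 816 CPM in WT and 1204, 1462, 1652 and 1290 CPM in miR-290 KO. Its groups did not overlap, and the difference was 0.78 ± 0.15 (limma adjusted p = 0.028), but it gave no whole reads. It did not pass without either ESC miR-290 KO library, any 1 WT library or either miR-290 KO colony. In miR-302 KO against WT, 0 of 78 members passed, beside 0.0313% of all genes (0.00783% lower and 0.0235% higher), and 15 members (19.2%) had an unadjusted limma p under 0.05, as did 15.1% of all genes. The median member was at -0.10 and the median gene at -0.11. The members with the largest differences were Rpl26 (-1.58 ± 1.16) and Rps23 (-1.12 ± 0.40, adjusted p = 0.27), both low in library 2 of colony 1. Without that library Rpl26 was at 0.57 and Rps23 at -0.46.

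Each single KO served as a second reference for the double KO. These comparisons share the double KO libraries with that against WT and are not independent of it. Against miR-290 KO, 16 members fell and 0 rose, beside 32.4% of all genes called (16.8% lower, 15.6% higher), with a median of -0.44. Every double KO library was below every miR-290 KO library for 46 members, beside 21.4% of all genes lower and 24.7% higher in this way. Against miR-302 KO, 36 fell and 1 rose, beside 46.9% of all genes called (18.4% lower, 28.5% higher), with a median of -0.51. Here every library was below for 45 members, beside 17.6% of all genes lower and 28.3% higher in this way. Among called members, the largest falls in both were those of Rps4l (-7.91 and -7.77) and Rpl30 (-2.55 and -4.16). Against miR-290 KO, Rpl30 was at -2.97 without the 2 uneven libraries, at -3.93 without miR-290 KO colony 2 and at -1.17 without colony 1, where its call was lost, as it was without double KO colony 1. Rps12 fell by 0.92 ± 0.28 against miR-290 KO (limma adjusted p = 0.023), Rpl36a by 0.88 ± 0.21 (adjusted p = 0.0063) and Rpl13 by 0.79 ± 0.19 (adjusted p = 0.0067). The call of Rps12 was lost without either double KO colony or miR-290 KO colony 1, and that of Rpl13 without double KO colony 2. Against miR-302 KO, Rplp2 fell by 2.49 ± 0.44 (limma adjusted p = 0.00064), Rpl37a fell by 1.31 ± 0.21 (limma adjusted p = 0.00035) and Rps14 by 1.23 ± 0.32 (adjusted p = 0.0079). Rps14 was at -0.91 without library 2 of miR-302 KO colony 1, and its call was lost without that colony. The 1 called higher was Rpl7a, at 0.73 ± 0.28 (adjusted p = 0.048). This call was lost in 11 of 13 fits that left out 1 sample, and the difference was 0.107 without library 2 of miR-302 KO colony 1. It was 0.51 with colony 1 of the double KO left out. Its deposited log2 values were 10.28 and 7.77 in miR-302 KO colony 1, 9.66 and 10.35 in colony 2, and 9.97 to 10.55 in double KO. Without the second library of colony 1 the miR-290 KO comparison had 27 falls and 1 rise. Without the 2 uneven libraries, 43 fell and 1 rose, a choice made after the data were seen.

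Whether the double KO change differed from the sum of both single KO changes was tested as an interaction. The double KO change was lower than that sum for 12 of 78 members and higher for 0, beside 23.6% of all genes called (11.7% lower, 12% higher), with a median of -0.35. The 12 included Rps4l (-7.20 ± 0.55, limma adjusted p = 2.1e-06), Rpl30 (-2.76 ± 0.91, adjusted p = 0.045), Rps14 (-1.71 ± 0.44, adjusted p = 0.015), Rpl29 (-1.46 ± 0.23, adjusted p = 0.00069) and Rpl6 (-1.31 ± 0.42, adjusted p = 0.041). The Rpl30 call was lost in 11 and the Rpl6 call in 10 of 13 fits that left out 1 sample, with values from -4.14 to -1.38 and from -1.56 to -1.05. The Rps14 call was lost in 2, without miR-290 KO colony 2 (-1.35) or miR-302 KO colony 1 (-1.42), while Rps4l and Rpl29 passed in all 13. Leaving out 1 sample gave counts from 3 to 20, and without the 2 uneven libraries it was 20.

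Neither the cell origin nor the choice of single cluster gave a member call. In miR-290 KO iPSC against miR-290 KO ESC, 0 of 78 members passed limma at an adjusted p under 0.05, beside 0% of all genes called. At an unadjusted p under 0.05 it was 0 members and 3.85% of all genes. For miR-302 KO iPSC against ESC 0 members passed, beside 0% of all genes, and 7 (8.97%) had an unadjusted p under 0.05, beside 10.5% of all genes. For miR-290 KO against miR-302 KO 0 members passed in iPSC, beside 2.25% of genes called (0.391% lower, 1.85% higher), and 4 (5.13%) had an unadjusted p under 0.05, beside 18.5% of all genes. In ESC 0 passed, beside 0.587% of genes (0.211% lower, 0.376% higher), and 1 (1.28%) had an unadjusted p under 0.05, beside 12.8% of all genes. The median member differed by -0.11, 0.09, -0.10 and 0.08 in these 4 comparisons. The largest values were those of Rpl26 (-1.90 ± 1.27) and Rpl30 (-0.84 ± 0.67) for miR-290 KO iPSC against ESC. For miR-302 KO iPSC against ESC they were those of Rpl26 (-1.79 ± 1.27) and Rps27 (-1.06 ± 0.74). Between the single KOs they were those of Rpl30 (-1.61 ± 0.67 in iPSC, -1.20 ± 0.67 in ESC) and Rplp2 (-1.36 ± 0.44 in iPSC, -0.62 ± 0.44 in ESC). In iPSC, Rpl30 was at -1.98 and Rplp2 at -1.35 without the 2 uneven libraries, and at -0.24 and -0.47 without the whole of miR-290 KO colony 2. Without colony 1 they were at -2.99 and -2.26. For miR-290 KO iPSC against ESC, Rpl26 was at -0.88 and Rpl30 at -0.42 without the 2 uneven libraries, and for miR-302 KO, Rpl26 was at 0.37 and Rps27 at 0.39.

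Between the 2 double KO colonies, the largest differences (colony 1 minus colony 2) were those of Rpl30 (-1.21) and Rps4l (-1.12), which are low in both and gave no whole reads. By chromosome, all 7 members on chromosome 11 and all 4 on chromosome 2 were higher in colony 1 than in colony 2. So were 71.0% and 79.9% of all genes of chromosomes 11 and 2. The member medians there were 0.43 and 0.49 on the log2 scale, and the medians of all genes 0.22 and 0.42. The 3 members on chromosome 1 and the 2 each on chromosomes 8, 16 and 18 were also all higher in colony 1. Their medians were 0.08, 0.11, 0.28 and 0.01. On the other chromosomes the median of all genes lay between -0.20 and 0.00. Rpl23, on chromosome 11, had 3691 and 3811 CPM in colony 1 and 2424 and 2791 CPM in colony 2. Rpl35, on chromosome 2, had 2310 and 2286 CPM against 1398 and 1470 CPM. Rps21, also on chromosome 2, had 3045 and 2990 CPM against 2105 and 2039 CPM. These 3 were chosen after their values were seen, and none passed in double KO against WT. A shift of the same kind was seen on chromosome 18 in miR-290 KO colony 2, where the median of all genes against WT was 0.64 and that of its 2 members, Rps14 and Rpl17, was 0.63. Rps14 had 7401 and 7126 CPM there and 4459 and 4305 CPM in colony 1. Other chromosomes were also high against WT. Chromosome 6 had all-gene medians of 0.62 and 0.70 in double KO colonies 1 and 2. Chromosome 8 had 0.45 and 0.40 in the miR-290 KO colonies and 0.15 and 0.16 in the miR-302 KO colonies. The 2 members on chromosome 8 had medians of -0.11, 0.16, -0.19 and -0.02 in these 4 colonies. The number of chromosomes was not measured. With chromosome medians subtracted, 55 members fell in double KO against WT and 1 rose. This step also takes out the shift over all genes (median 0.16), and median-of-ratios scaling alone gave 55 falls as well.

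**Figure D5:**
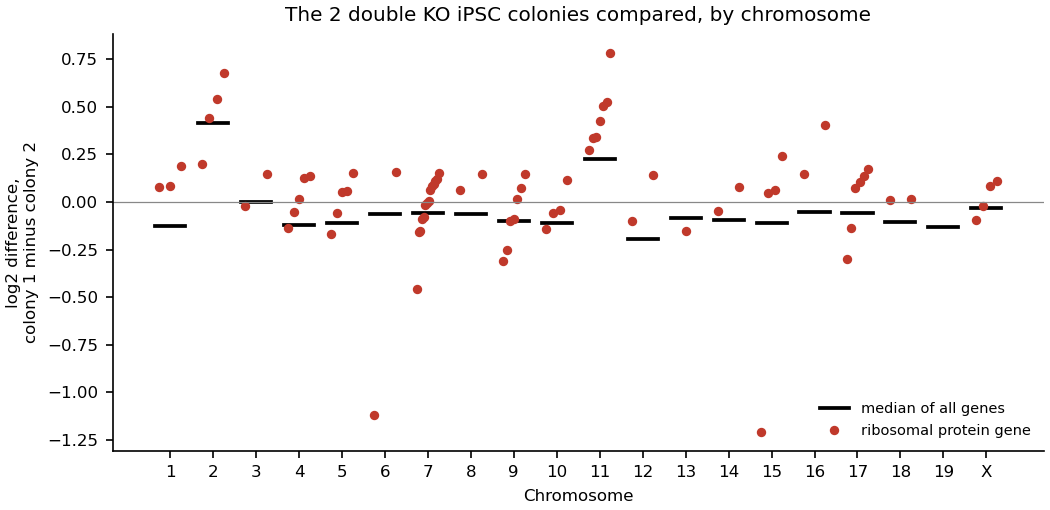
log2 difference between double KO colony 1 and colony 2 (y axis) by chromosome (x axis). Red points are ribosomal protein genes and black lines are the medians of all genes on the chromosome. On chromosomes 2 and 11 all points and both lines lie above 0.

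Genes that build or use ribosomes were counted in the same fit, double KO against WT. Over all genes 21.5% fell and 27.4% rose, and the shares below are to be read beside these. Of 19 measured genes of RNA polymerase I transcription, 10 fell (52.6%) and 0 rose (median -0.60), among them Polr2e (-1.45 ± 0.17, limma adjusted p = 1.8e-05), a subunit that all nuclear RNA polymerases share, and Polr1b (-1.32 ± 0.22, adjusted p = 0.00043). Of 109 ribosome assembly factors, 64 fell (58.7%) and 1 rose (median -0.71). Mdn1, an AAA ATPase that releases factors from the large subunit precursor, fell from 236 CPM to 59.8 CPM (means), and Heatr1, of the small subunit processome, from 156 CPM to 52.5 CPM. The 1 that rose was Ddx47, an RNA helicase, from 61.3 CPM to 103 CPM. Noncoding hosts of snoRNAs, several with TOP motifs, had 8 of 15 lower (53.3%) and 0 higher (median -1.03). Snhg1 fell from 281 CPM to 76.0 CPM, and Snhg18 from 7.32 CPM to 0.277 CPM.

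Of 54 translation factors, 17 fell (31.5%) and 2 rose (3.7%), with a median of -0.42. Eef1g, a subunit of elongation factor 1, fell from 1526 CPM to 636 CPM and Abce1, which recycles ribosomes, from 191 CPM to 79.6 CPM. Eif4g3 rose from 44.9 CPM to 170 CPM, and Eef2k, the kinase that inhibits elongation factor 2, from 6.33 CPM to 16.3 CPM. Mitochondrial ribosomal proteins, which form a separate ribosome, had 22 of 77 lower (28.6%) and 7 higher (9.09%), with a median of -0.24. Mrpl15 fell from 245 CPM to 94.9 CPM and Mrpl47 from 87.0 CPM to 35.6 CPM, while Mrpl3 rose from 64.4 CPM to 141 CPM and Mrps26 from 44.8 CPM to 94.5 CPM. Of 38 genes of mTORC1 signalling and TOP mRNA control, 7 fell (18.4%) and 9 rose (23.7%), near the shares over all genes (median -0.06). Mycl, a MYC family gene, was lower, 15.9 CPM against 0.105 CPM, and Deptor, an mTOR inhibitor, 63.8 CPM against 12.6 CPM. Tia1, an RNA-binding protein linked to TOP mRNAs, rose from 32.6 CPM to 140 CPM, and Akt1s1, which encodes the mTORC1 inhibitor PRAS40, from 4.33 CPM to 15.2 CPM.

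The authors' deposited table of double KO against WT, which lists only genes with an adjusted p of at most 0.05, held 72 of the 78 members, and all 72 were lower. That table listed 8672 genes in all, where the matrix held 12778, and 53.4% of those listed were lower. Of the 6 members not in it, Rpl19, Rpl29, Rpl32, Rps2 and Rps27l had positive values in the fit above and Rpl7a had -0.08. The authors' deposited table of miR-290 KO against WT held 10 of the 78 members and 1429 genes in all, beside the 12778 of the matrix. Of these members 9 were lower and Rpl29 was higher, where 38.6% of the genes listed were lower. The authors' table of miR-302 KO against WT held 0 members among 43 genes. Whether members were listed more often than other genes was not tested. The median of the 72 members listed in the authors' deposited double KO table was -0.99. Over all 78 members it was -0.77 here with median-of-ratios scaling and -0.63 without it. The -0.99 leaves out the 6 members not listed, so these medians differ in more than scaling. That scaling lowered the median of all genes from 0.16 to 0.02, and with it 55 members fell and 0 rose.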

How the data were processed

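The authors deposited 1 matrix of log2 values for 12778 genes. They behave as log2 CPM to which a few reads were added, with an offset of its own for each gene. Per the submitters' processing notes, mm10, Trim Galore 0.66, STAR, Salmon 1.4.0, limma and DESeq2 1.34.0 were used, with no roles given. How reads mapping to several copies were treated is not given in the sources used here. Whole reads (within 0.02 of a read in at least 13 libraries) were recovered for 95.7% of genes, and 99.7% of their values were whole. The prior was 2.41 reads on average. In 3 comparison tables the deposited mean normalized counts (signal, baseMean), log2 fold changes and adjusted p-values are given per the file headers, and recovered reads matched these means within 5% for 100% of shared genes. For members without whole reads, that mean set the level. In the matrix, 6 columns of other samples were not used.

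Values of a colony's 2 libraries were averaged, giving 13 samples. These were fitted with limma 3.58.1 in R 4.3.3, with a variance trend and 7 residual degrees of freedom, over all genes. Calls were made where the Benjamini-Hochberg adjusted p was under 0.05. Recovery and fit were tested on simulated data. Count models were not used, because the matrix holds log2 values. Reads carried no molecular identifiers, so PCR copies are counted and intervals cover counting error only.

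The members, gene lists and tests were chosen with earlier results of these data known. In each comparison the text names the 5 called members with the largest rise and the 5 with the largest fall, or 2 by size where none passed. It also names a fixed set of members chosen by role, the highest and lowest member in each group, and the 2 listed genes with the largest rise and fall in double KO against WT. Alternatives were other scaling, libraries as samples, a replicate block, sample weights, no trend, a filter, fewer groups, chromosome medians and leaving out samples. A few single-gene results are not reported here.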

Additional observations from a re-analysis of the deposited data

Results flagged for a closer look

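Among 69 groups of 4 libraries examined (the share of reads and the named members with a level, in 3 KO iPSC groups), 5 held a library whose gap to the nearest other exceeded Dixon's critical value for the group's range. For 4 independent values chance flags about 1 in 20 groups. Sister libraries of a colony, and genes of the same libraries, are not independent, so this rate does not hold strictly here. In miR-302 KO iPSC, library 2 of colony 1 had 13986 CPM of Rps14, where the others had 5629 to 5925, and 47.9 CPM of Rps27, where they had 2271 to 2693. In the same group, library 2 of colony 2 had 4204 CPM of Rpl10, where the others had 2960 to 3057. In the double KO, library 1 of colony 1 had 1866 CPM of Rpl39 and 2456 CPM of Rpl5, where the other libraries had 1635 to 1661 and 2263 to 2285.

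The change in the double KO differed from the sum of the single KO changes, by limma's interaction test, for 12 members (15.4%), all lower. Over all genes 23.6% were called, 11.7% lower and 12% higher. The 10 given here are Rps4l (-7.20), Rpl30 (-2.76), Rps14 (-1.71), Rpl29 (-1.46), Rpl6 (-1.31), Rpl37a (-0.97), Rpl8 (-0.93), Rps4x (-0.87), Rpl13 (-0.80) and Rpl15 (-0.69), on the log2 scale. Of these, Rps14, Rpl29, Rpl6 and Rpl15 did not pass in double KO against WT. Rps4l, Rpl30, Rpl29, Rpl37a and Rps4x gave no whole reads. Leaving out 1 sample gave values from -4.14 to -1.38 for Rpl30 and from -1.56 to -1.05 for Rpl6.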

How the results depend on the processing

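Calls rest on 2 or 3 samples per group and a spread pooled over groups. The 20 members without whole reads are limited further, as their values may hold reads divided between copies, which was not tested. The fall in double KO against WT (46 members called) kept within 1.5 times of its count under each alternative except without double KO colony 2, and leaving out 1 sample gave 27 to 51. For miR-290 KO against WT (1 called) the count was 0 with median-of-ratios scaling, the replicate block, no variance trend, only the groups compared, chromosome medians subtracted or only members with whole reads. It was 2 without the 2 uneven libraries, and 0 to 2 leaving out 1 sample. For miR-302 KO against WT (0 called) it was 1 with each library as a sample, with the genes of lowest level left out or with chromosome medians subtracted, and 0 to 11 leaving out 1 sample. The 11 came without miR-302 KO colony 2.

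For double KO against miR-290 KO (16 called), libraries as samples gave 34, the replicate block 30, no trend 10, only the groups compared 6, chromosome medians 10 and members with whole reads 10. Without miR-302 KO colony 1 library 2 it was 28, without the 2 uneven libraries 44, and leaving out 1 sample 5 to 25. For double KO against miR-302 KO (37 called), only the groups compared gave 16, and leaving out 1 sample gave 23 to 38. For the interaction (12 called), sample weights gave 7, no trend 3, only the groups compared 5, members with whole reads 6, without the 2 uneven libraries 20, and leaving out 1 sample 3 to 20. For miR-290 KO against miR-302 KO iPSC (0 called), libraries as samples gave 1 and leaving out 1 sample 0 to 4. For miR-302 KO iPSC against ESC (0 called), leaving out 1 sample gave 0 to 5. Where construction does not show it, the cause was not tested.

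Replicate numbers were not taken to pair the samples. Over 36 pairs of library differences correlations ran from -0.32 to 0.29, with a median of 0.01, and 9 were over 0.1. The lowest was that between the 2 colonies with the uneven libraries. Whether libraries of the same number share a preparation was not tested. With the replicate block 42 members fell in double KO against WT. Signs that turned were those of members without a call. Rps27l in double KO against WT was -0.069 with median-of-ratios scaling and -0.063 with chromosome medians subtracted. In miR-302 KO, Rpl26 against WT was 0.57 without colony 1 library 2, alone or with the miR-290 KO library, and ran from -3.56 to 0.39 leaving out 1 sample. Against ESC, Rpl26 was 0.37 and Rps27 0.39 without that library, and leaving out 1 sample gave -3.76 to 0.18 and -2.42 to 0.30. In miR-290 KO iPSC against ESC, leaving out 1 sample gave -4.21 to 0.41 for Rpl26 and -2.22 to 0.54 for Rpl30.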

Other observations

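The 2 uneven libraries came from different genotypes. Their pairs were picked because these same members spread most in them (SD of 1.56 and 0.617), so the likeness given here is descriptive. Over the members, library 1 of miR-290 KO colony 2 had an SD of 0.988 from the WT mean, and library 2 had 0.480. The sign of r depends on which library of each pair is subtracted. Across the 78 members, the difference of miR-302 KO colony 1 library 2 from its sister and that of miR-290 KO colony 2 library 1 from its sister had a Pearson r of 0.93. Across all 12778 genes r was 0.32. The signs matched for 62 members (79.5%) and for 67.3% of all genes. Genes and members within a library share its preparation and are not independent, so no p is given. The lowest in the miR-302 KO pair were Rpl26 (-8.63), Rps27 (-5.81), Rpl39 (-3.33), Rpl30 (-3.18) and Rps23 (-2.63). The highest were Rps14 (1.31), Rplp1 (1.20), Rpl8 (1.16) and Rpl41 (1.15). Over genes with whole reads, the 2 uneven libraries held 11059716 and 24970500 reads, and their sisters 17459403 and 6430186. The last was the lowest of all 19 libraries.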
